A study of Mus musculus with 20 samples.

Results

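In injured mouse heart, 10 genes of the TEAD and YAP pathway were followed: the TEAD transcription factor genes Tead1, Tead2, Tead3 and Tead4, the coactivator genes Yap1 and Wwtr1 (the latter encodes TAZ), the TEAD-binding repressor gene Vgll4, and the widely used target genes Ccn1, Ccn2 and Ankrd1. They were chosen by name. Each symbol was matched to 1 Ensembl gene of the deposited count table, and all 10 were found among its 63318 genes and passed the filter on low counts. The question was how the level of each gene, and the makeup of its transcripts, differed between injured and sham-operated hearts.

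TEAD proteins bind DNA but activate poorly on their own. YAP and TAZ have no DNA-binding domain of their own and act mostly through TEAD. Kinases of the Hippo pathway phosphorylate YAP and TAZ and so keep them out of the nucleus, a step that messenger RNA levels do not report. VGLL4 occupies TEAD in competition with YAP. In the heart the pathway is known for its part in cardiomyocyte growth during development, in fibroblast activation and in the response to mechanical load.

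Tissue of mouse hearts was lysed in Trizol, and poly(A) RNA was sequenced. MI libraries came from hearts with a myocardial infarction, sampled 72 h after surgery, from the infarct core together with its surroundings. IR libraries came from the infarct core after ischemia-reperfusion, namely 40 min under the label "LCA", an abbreviation given without explanation, followed by 72 h of reperfusion. MISham and IRSham were the sham-operated groups, each taken from the same region as its injured group. Each group had 4 short-read libraries. Strain, age and sex are not given in the sources used here, and the labels do not say that libraries came from separate animals, so each p-value reflects variation among libraries, which may be technical. A further 4 long-read libraries, 1 per group, were not analysed here. Since region differed along with the kind of injury, the injuries themselves and the regions sampled cannot be told apart.

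Total counts per library were 57215382 to 63070805 in MI and 24273984 to 31832969 in the other groups, so counting precision was higher in MI. Along the first principal component of log2 CPM, MISham replicates 1 and 3 lay closer to the injured libraries than replicates 2 and 4, and IR replicates 1 and 3 lay closer to the shams than IR replicates 2 and 4. The 8 cardiomyocyte markers summed to 10510 to 19440 CPM (counts scaled to a common library size) in MI against 61450 to 74360 in MISham, and to 11250 to 24010 in IR against 65390 to 71360 in IRSham. None of the 8 was at 0 in any library, and all 8 fell in both injuries by edgeR's test. The summed CPM of the 8 fibroblast markers was higher in injured libraries, at 2379 to 9065 in MISham and 22550 to 27310 in MI, and at 5836 to 8678 in IRSham and 26490 to 30860 in IR. Of these markers 7 rose in both injuries, while the proteoglycan gene Dcn fell in MI (-0.66 ± 0.11, adjusted p = 5e-05, edgeR) and had -0.23 in IR (adjusted p = 0.0902). Its IR value was 0.0638 with library size alone, and it was called lower without IR replicate 1 (-0.356, adjusted p = 0.00393) or without IR replicates 1 and 3 (-0.297, adjusted p = 0.0174). Collagen genes and Fn1 made up most of the sum. Macrophage markers (8 genes) summed to 407 to 1028 CPM in MISham, 2043 to 2855 in MI, 748 to 1340 in IRSham and 2264 to 3994 in IR. Cell cycle markers (8 genes) summed to 50.4 to 131 CPM in MISham, 568 to 745 in MI, 74.6 to 121 in IRSham and 457 to 632 in IR. Endothelial markers (8 genes) summed to 1245 to 1399 CPM in MISham, 1504 to 1599 in MI, 1258 to 1382 in IRSham and 1001 to 1463 in IR. Smooth muscle and pericyte markers (6 genes) summed to 829 to 881 CPM in MISham, 622 to 681 in MI, 875 to 952 in IRSham and 684 to 889 in IR. Of these genes, 3 were called higher and 3 lower in each injury. Epicardial markers (6 genes) summed to between 12.9 and 52.0 CPM in all groups, with at most 1 of them at 0 in a library. In bulk tissue, fewer cells of a type and less RNA per cell cannot be told apart. The part of this changed cell makeup in the results below was not tested.

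The TEAD binding motif is known as the MCAT element, CATTCC, which reads GGAATG on the other strand. It was searched on both strands in the 300 bases around each gene's start, from 250 before to 50 after, in the RefSeq promoter table for GRCm38.p6. Of the 10 genes 7 had a promoter in that table (Tead1, Tead4 and Ccn2 had none), and 6 of the 7 held the motif, compared with 16.6% of all 27025 genes in the table. Tead2 was the gene without it. Yap1 had a match 141 bases before its start and Vgll4 had one 82 bases before, and matches also stood before starts of Wwtr1 and Tead3, which have several starts in the table. Ccn1 had 1 match, 103 bases before the start, and Ankrd1 had 2 matches, 210 and 123 bases before the start. Both sequences are shown because these are the classical targets among the members, and the 2 promoters differ in the number and place of their motifs. They are the 250 bases before the start, on the gene's own strand, with the motif in capitals, from chr3:145649986-145650235 (minus strand) and chr19:36119845-36120094 (minus strand) of GRCm38.p6.
Ccn1: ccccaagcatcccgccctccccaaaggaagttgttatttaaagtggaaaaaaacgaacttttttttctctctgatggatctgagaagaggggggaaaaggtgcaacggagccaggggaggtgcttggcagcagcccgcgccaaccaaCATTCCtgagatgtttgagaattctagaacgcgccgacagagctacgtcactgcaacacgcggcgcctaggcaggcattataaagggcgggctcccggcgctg
Ankrd1: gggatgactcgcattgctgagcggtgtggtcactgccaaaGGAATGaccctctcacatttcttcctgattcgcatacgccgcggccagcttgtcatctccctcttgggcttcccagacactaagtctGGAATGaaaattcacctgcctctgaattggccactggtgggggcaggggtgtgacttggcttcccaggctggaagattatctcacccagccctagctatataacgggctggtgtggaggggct
A match of these letters is a description of the sequence and does not show that a TEAD protein binds there.

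The members did not move as a block. In MI against MISham, 6 of the 10 genes were called higher (Tead2, Tead4, Vgll4, Ccn1, Ccn2 and Ankrd1) and 3 lower (Tead1, Tead3 and Yap1) by edgeR's quasi-likelihood test at an adjusted p under 0.05, while 64.9% of the 19741 genes tested were called (34.8% higher and 30.2% lower). In IR against IRSham, 4 were called higher (Tead2, Vgll4, Ccn1 and Ccn2) and the same 3 lower, against 57.7% of all genes (29.5% higher and 28.2% lower). With most genes called in both injuries, the number of members called is not read as a result about the pathway. The median log2 fold change of the 10 genes was 0.55 in MI and -0.02 in IR, beside medians over all genes of 0.08 and 0.03. CPM of the injured and sham libraries did not overlap for 9 members in MI (62.8% of all genes) and 8 in IR (51.4% of all genes). With library size alone in place of TMM scaling, the median of all genes moved to 0.39 in MI and 0.32 in IR, the split became 7 higher and 2 lower in MI and 5 higher and 0 lower in IR, and every direction below is relative to the TMM scale.

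**Figure D1:**
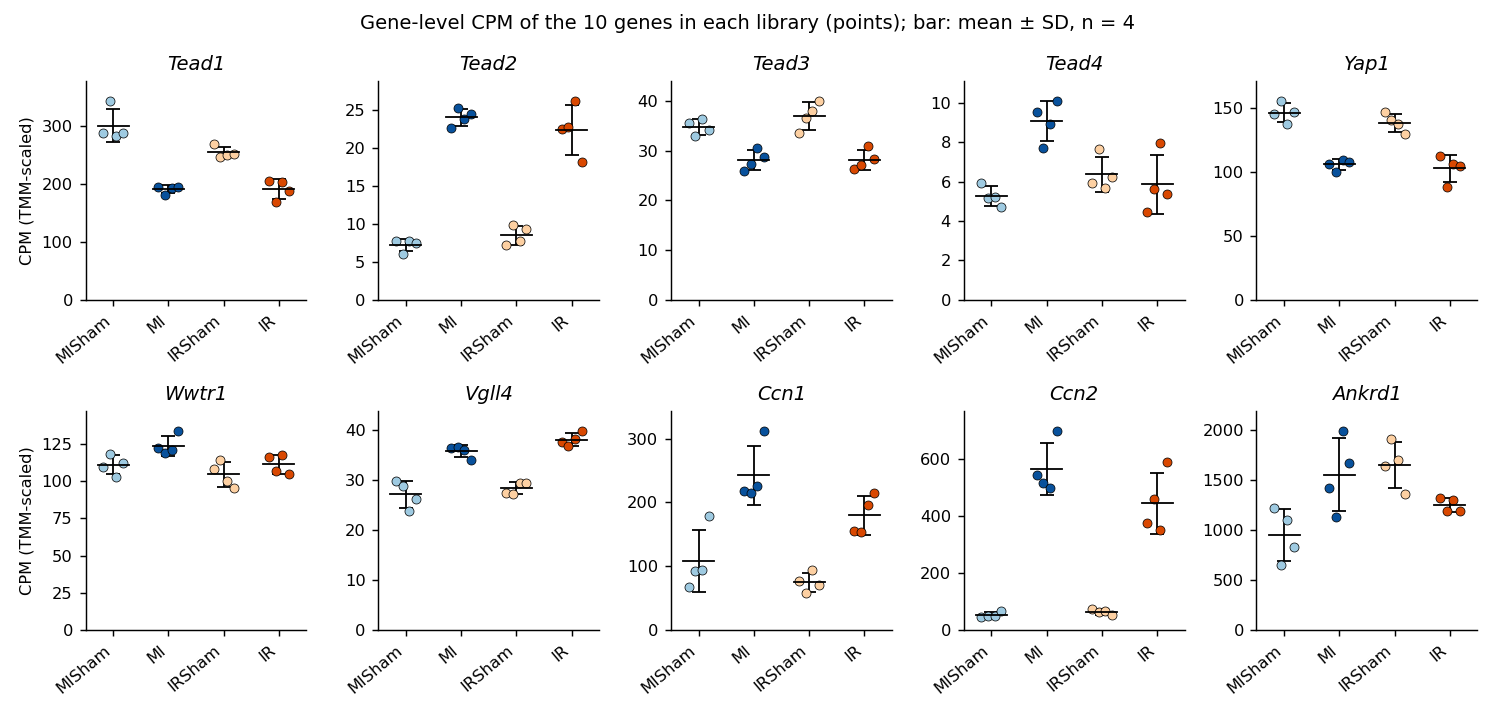
CPM (counts scaled to library size and TMM factor) of each gene in the 16 libraries, 1 panel per gene, with the group mean and SD (n = 4) as bars. Ccn2 and Tead2 separate injured from sham libraries in both injuries, as do Tead1, Tead3, Yap1, Vgll4 and Ccn1. Of all genes, 62.8% did so in MI and 51.4% in IR. Ankrd1 is lowest in MISham and highest in single MI and IRSham libraries.

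**Figure D2:**
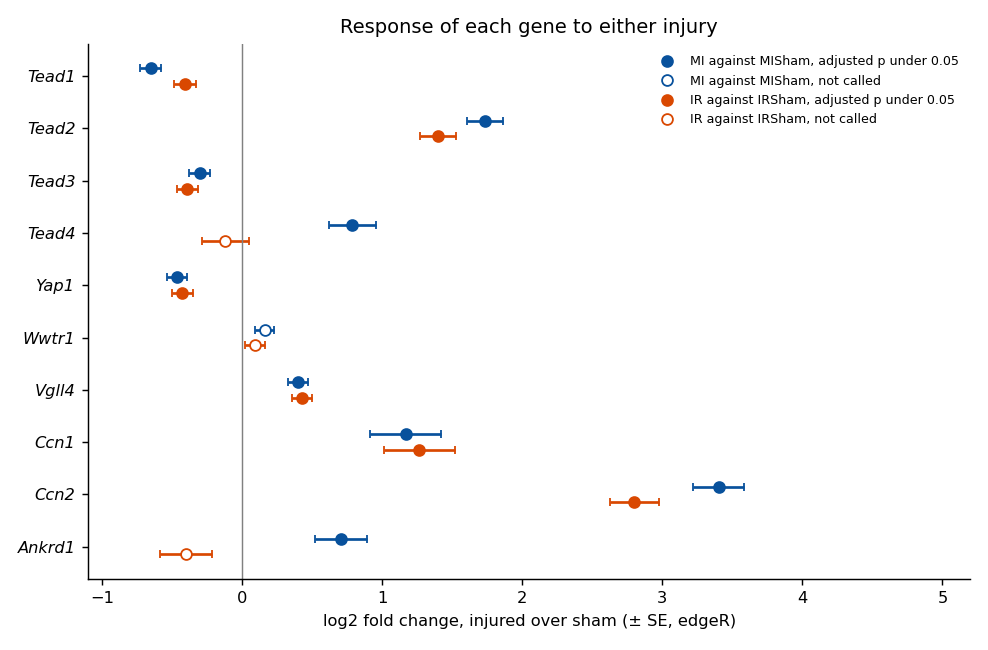
Log2 fold change of each gene, injured over sham, with its SE from edgeR, for MI and IR. Filled points were called at an adjusted p under 0.05; Ccn2 has the highest values, 3.40 and 2.80, and Tead4 and Ankrd1 are the genes whose MI and IR values lie on different sides of 0 (for Tead4, not with library size alone, where its IR value was 0.171).

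By gene counts Tead1 fell in both injuries and Tead2 rose, and the share of Tead1 in the family, by counts per kilobase, was smaller in injured libraries; by TPM it was not (values below). The Tead1 gene (ENSMUSG00000055320.19) encodes the TEAD factor long known from cardiac muscle. Its CPM was 288, 344, 283 and 289 in the 4 MISham libraries (replicates 1 to 4) and 194, 181, 193 and 196 in MI. In IRSham it was 269, 247, 250.5 and 252, and in IR 206, 169, 204 and 188. Every injured library was below every sham library in both comparisons. The log2 fold change was -0.66 ± 0.08 (SE, adjusted p = 1.05e-06, edgeR, n = 4 per group) in MI and -0.41 ± 0.08 (adjusted p = 0.000213) in IR. With library size alone the IR value became -0.12 and was no longer called (adjusted p = 0.145).

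Tead2 (ENSMUSG00000030796.18), a family member best known from the early embryo and from neural progenitors, was the TEAD gene with the highest fold change. Its CPM was 7.70, 6.03, 7.76 and 7.46 in MISham and 22.7, 25.3, 23.8 and 24.5 in MI. The IRSham libraries had 7.19, 9.86, 7.78 and 9.28, and the IR libraries 22.5, 22.8, 26.2 and 18.2. The lowest injured library was well above the highest sham library in each comparison. The log2 fold change was 1.73 ± 0.13 (adjusted p = 6.87e-09, edgeR) in MI and 1.40 ± 0.13 (adjusted p = 1.19e-07) in IR.

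Tead4 (ENSMUSG00000030353.16), known from trophectoderm and from skeletal muscle regeneration, had the lowest counts of the family. It rose in MI, from 5.94, 5.17, 5.24 and 4.71 CPM in MISham to 9.56, 7.72, 8.95 and 10.1 in MI. In IRSham it had 5.92, 7.66, 5.68 and 6.25 CPM, and in IR 4.44, 5.63, 7.97 and 5.38, so these groups overlapped. The log2 fold change was 0.79 ± 0.17 (adjusted p = 0.000515, edgeR) in MI and -0.12 ± 0.17 (adjusted p = 0.564) in IR, where library size alone turned it to 0.171. The difference between these responses was 0.91 ± 0.24, which edgeR did not call (adjusted p = 0.111) and DESeq2 did (adjusted p = 0.0254). It was also called by edgeR without IR replicate 3 (1.09, adjusted p = 0.0164) or without MISham replicates 1 and 3 (1.00, adjusted p = 0.048). These libraries had the highest Tead4 CPM of their groups, so leaving them out raises the difference by construction. Tead3 (ENSMUSG00000002249.22) lay between 32.9 and 40.0 CPM in the 8 sham libraries and between 25.9 and 31.0 in the 8 injured ones. It fell by 0.30 ± 0.08 on the log2 scale in MI (adjusted p = 0.00179, edgeR) and by 0.39 ± 0.08 in IR (adjusted p = 0.000242), but with library size alone its MI value was 0.00366 (adjusted p = 0.969) and its IR value -0.10 (adjusted p = 0.268).

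Per kilobase of the deposited gene length, Tead1 counts made up 71.5% ± 2.83 (SD, n = 4) of the 4 TEAD genes in MISham and 52.0% ± 1.01 in MI. The same share was 65.7% ± 2.58 in IRSham and 55.0% ± 3.13 in IR. Tead2 went from 5.6% ± 0.884 to 21.2% ± 1.30 in MI and from 7.10% ± 0.992 to 20.8% ± 2.16 in IR. These ranges did not overlap between injured and sham libraries for either gene. Tead3 held 15% to 21.4% in all groups. Tead4 held 5.40% ± 0.590 in MISham and 10.6% ± 0.950 in MI, but 7.06% ± 0.947 in IRSham and 7.18% ± 1.41 in IR. Summed annotated transcript TPM (abundance scaled for transcript length and depth) gave another order within the family: Tead1 held only 16.7% ± 6.38 in MISham and 17.1% ± 1.30 in MI, with 19.9% ± 3.02 in IRSham and 19.2% ± 5.02 in IR, and Tead3 was the most abundant in both shams, at 51.4% ± 7.58 and 47.2% ± 4.41. The Tead2 share was larger in injured libraries by TPM too, at 44.2% ± 3.65 in MI and 42.4% ± 8.18 in IR, while the shams had 23.6% ± 4.35 (MISham) and 25.4% ± 1.97 (IRSham).

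**Figure D3:**
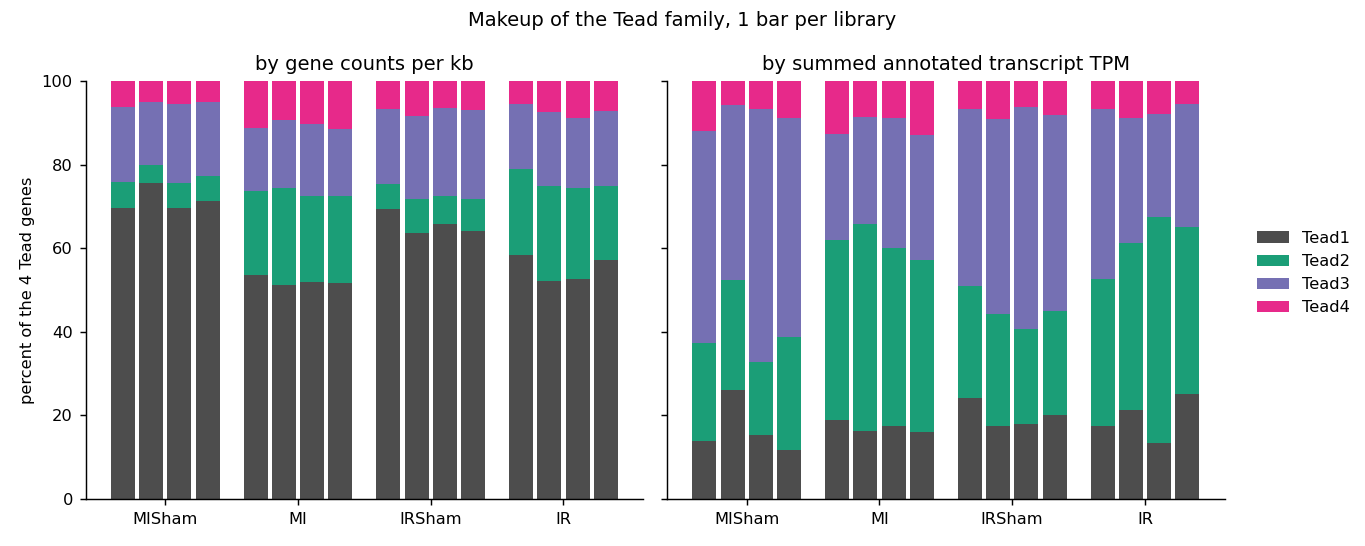
Share of each TEAD gene in the family, in percent, 1 stacked bar per library (n = 4 per group, replicates 1 to 4 from left to right), by gene counts per kb (left) and by summed annotated transcript TPM (right). Tead2 takes a larger share in injured libraries on both scales, whereas Tead1 holds over 50% by counts and under 27% by TPM in every library.

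Of the coactivator genes, Yap1 fell by gene counts and Wwtr1 was not called. For Yap1 (ENSMUSG00000053110.14), CPM was 145, 156, 137 and 147 in MISham and 106, 100, 110 and 108 in MI, and 147, 140, 138 and 129 in IRSham and 113, 88.1, 106 and 105 in IR. No injured library reached its sham range. The log2 fold change was -0.46 ± 0.07 (adjusted p = 2.1e-05, edgeR) in MI and -0.43 ± 0.07 (adjusted p = 6.96e-05) in IR, the latter -0.14 and not called with library size alone (adjusted p = 0.0742). Its summed annotated TPM went the other way, from 27.7 to 29.0 in MISham to 32.7 to 35.8 in MI, with no overlap, and from 27.0 to 30.9 in IRSham to 30.7 to 35.9 in IR, with an overlap; the upward shift of TPM as deposited is given below. Wwtr1 (ENSMUSG00000027803.15) lay between 95.5 and 134 CPM in all 16 libraries, with log2 fold changes of 0.16 ± 0.07 in MI (adjusted p = 0.0512, edgeR) and 0.09 ± 0.07 in IR (adjusted p = 0.278). Both were called with library size alone (0.47 and 0.38), and the MI value also without MI replicate 2 (adjusted p = 0.0477) or without MISham replicate 2 (adjusted p = 0.0336). Vgll4 (ENSMUSG00000030315.16) rose from 23.8 to 29.8 CPM in MISham to 34.0 to 36.5 in MI, and from 27.2 to 29.5 in IRSham to 36.7 to 39.7 in IR. Its log2 fold change was 0.40 ± 0.07 (adjusted p = 9.48e-05, edgeR) in MI and 0.42 ± 0.07 (adjusted p = 6.54e-05) in IR.

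Ccn2 and Ccn1 rose in both injuries. Both encode secreted matricellular proteins of the CCN family, and both are standard readouts of YAP and TEAD activity, though other pathways, TGF-beta among them, also drive Ccn2. Ccn2 (ENSMUSG00000019997.12) had 46.7, 50.7, 50.4 and 65.4 CPM in MISham and 542, 516, 498 and 697 in MI. It had 74.2, 61.4, 68.2 and 50.9 CPM in IRSham and 376, 460, 350.2 and 588 in IR. The lowest injured library had several times the CPM of the highest sham library in each comparison. The log2 fold change was 3.40 ± 0.18 (adjusted p = 1.24e-09, edgeR), or 10.6-fold, in MI and 2.80 ± 0.18 (adjusted p = 2.32e-08), or 6.96-fold, in IR. The difference of the responses, 0.60 ± 0.23, was not called (adjusted p = 0.247).

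Ccn1 (ENSMUSG00000028195.5), known also as Cyr61, had 67.2, 93.0, 94.2 and 178 CPM in MISham and 218, 214, 226 and 312 in MI. In IRSham it had 76.2, 58.3, 94.7 and 70 CPM, and in IR 156, 154, 195 and 215. The groups did not overlap in either comparison, although MISham replicate 4 came near the MI range. Its log2 fold change was 1.17 ± 0.25 (adjusted p = 0.000942, edgeR) in MI and 1.26 ± 0.26 (adjusted p = 0.000626) in IR. The summed CPM of fibroblast markers, given above together with the fall of Dcn in MI, was also higher in injured than in sham libraries. So were the sums of macrophage and cell cycle markers. A link between any of these sums and Ccn1 or Ccn2 was not tested.

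Ankrd1 (ENSMUSG00000024803.10), which encodes the cardiac ankyrin repeat protein of the sarcomere and nucleus, did not follow the CCN genes. It had 1222, 655, 1096 and 828 CPM in MISham and 1419, 1129, 1990 and 1670 in MI. In IRSham it had 1638, 1912, 1705 and 1359 CPM, and in IR 1324, 1190, 1303 and 1187. Thus MI lay mostly above its sham, with an overlap, while all IR libraries lay below all IRSham libraries. It rose by 0.71 ± 0.19 on the log2 scale in MI (adjusted p = 0.00283, edgeR), and its IR value was -0.40 ± 0.19 (adjusted p = 0.0723). IR was called lower when only its 2 groups were fitted (adjusted p = 0.0166) or without IRSham replicate 4 (adjusted p = 0.0463). The difference of the responses was 1.11 ± 0.26 and was not called by edgeR (adjusted p = 0.0877). DESeq2 called it (1.06, adjusted p = 0.00843). So did edgeR without MISham replicates 1 and 3 (1.47, adjusted p = 0.00601), a choice made after seeing the data. These are the MISham libraries with the highest Ankrd1 CPM (1222 and 1096, against 655 and 828). Leaving them out raises the difference by construction, so that call adds nothing to it.

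The shams themselves differed in Ankrd1. MISham was 0.80 ± 0.19 lower than IRSham on the log2 scale (adjusted p = 0.019, edgeR), with no overlap, and Ankrd1 was the 1 member called between the shams, where 3.2% of all genes were called. Without MISham replicates 1 and 3, the MISham libraries with the highest Ankrd1, this became -1.16 (adjusted p = 0.00132), a widening by construction. It was not called when only the shams were fitted (-0.77, adjusted p = 0.112), with no filter on low counts (adjusted p = 0.106), or without MISham replicate 2 (-0.66, adjusted p = 0.0573), MISham replicate 4 (-0.74, adjusted p = 0.0777), IRSham replicate 2 (-0.72, adjusted p = 0.0742) or IRSham replicate 3 (-0.79, adjusted p = 0.0514). Cardiomyocyte markers summed to overlapping CPM ranges in the shams, but the part of cell makeup in the Ankrd1 difference was not tested. Tead1 was the other member without overlap between the shams, 0.24 ± 0.08 higher in MISham (adjusted p = 0.134), beside 8.84% of all genes without overlap.

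For the difference of the MI and IR responses, edgeR called 0 of the 10 members, beside 0.192% of all genes. DESeq2 called 2, beside 3.3% of the 15912 genes to which it gave an adjusted p. At an unadjusted p under 0.05 edgeR had 4 (Tead1, Tead4, Ccn2 and Ankrd1), beside 14.7% of all genes.

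Levels of different genes were compared per kilobase of gene length. In MISham the order of mean CPM per kb was Ankrd1 (197 ± 53.2), Ccn1 (38.0 ± 17.0), Wwtr1 (23.2 ± 1.33), Tead1 (19.5 ± 1.86), Ccn2 (18 ± 2.80), Yap1 (15.8 ± 0.809), Vgll4 (5.02 ± 0.504), Tead3 (4.74 ± 0.208), Tead2 (1.51 ± 0.171) and Tead4 (1.46 ± 0.140). The libraries of neighbours in this order overlapped except between Ankrd1 and Ccn1, between Yap1 and Vgll4, and between Tead3 and Tead2. In MI Ccn2 stood after Ankrd1 in the order, at 191 ± 30.8 CPM per kb beside 322 ± 76.0, with their ranges just overlapping. Ccn1 followed at 85.3 ± 16.3, Wwtr1 at 25.9 ± 1.39, Tead1 at 12.4 ± 0.435 and Yap1 at 11.4 ± 0.454, with Tead1 and Yap1 overlapping. Tead2, at 5.03 ± 0.233, was above Tead3, at 3.84 ± 0.267, without overlap in MI. In IR, Tead2 at 4.69 ± 0.691 and Tead3 at 3.84 ± 0.278 overlapped, and the order of the other genes was that of MI. In IRSham the order was Ankrd1 (343 ± 47.4), Ccn1 (26.3 ± 5.34), Wwtr1 (21.9 ± 1.73), Ccn2 (21.5 ± 3.39), Tead1 (16.5 ± 0.644), Yap1 (15 ± 0.776), Vgll4 (5.24 ± 0.223), Tead3 (5.04 ± 0.373), Tead2 (1.78 ± 0.261) and Tead4 (1.77 ± 0.246). There the neighbours without overlap were Ankrd1 and Ccn1, Tead1 and Yap1, Yap1 and Vgll4, and Tead3 and Tead2. Summed annotated TPM gave another order in MISham: Ankrd1 (543 ± 177), Ccn1 (38 ± 13.6), Yap1 (28.4 ± 0.614), Ccn2 (26.9 ± 3.21), Wwtr1 (16.1 ± 0.753), Tead3 (11.2 ± 2.10), Vgll4 (10 ± 1.01), Tead2 (5.08 ± 0.790), Tead1 (3.7 ± 1.64) and Tead4 (1.8 ± 0.521). Tead1 thus stood above Yap1 and Tead3 by counts per kilobase and well below both by TPM.

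Transcripts were next examined, because Tead1 and Yap1 are both known to be alternatively spliced. The files list 15 Tead1 transcripts and 10 Yap1 transcripts with Ensembl IDs. Names, exons and sequences of these transcripts come from GENCODE M21, whose coordinates are on GRCm38, while the files were made on GRCm39. A Tead1 pair of coding exons, each of 63 bases and 89 bases apart, is of interest because transcripts carry one, the other or both, and a 12-base coding exon follows them. The upstream exon lies at chr7:112841888-112841950, the downstream exon at chr7:112842040-112842102 and the short exon at chr7:112856053-112856064, all on the plus strand of GRCm38. They are printed 5′ to 3′, to show how alike the first pair is: 44 of 63 positions are identical (69.8%).
Upstream: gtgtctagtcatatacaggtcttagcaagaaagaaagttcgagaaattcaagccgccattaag
Downstream: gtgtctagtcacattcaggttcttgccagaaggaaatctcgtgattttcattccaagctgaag
Short exon: gtaacaagcatg
Tead1-201 and Tead1-206 carry all of them and have the same coding exons; they differ in the exon at their 5′ end and in the length of the last exon, 8261 bases in Tead1-201 and 114 in Tead1-206. Tead1-202 has the downstream exon alone of these, and Tead1-207 has the upstream and the short exon.

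Tead1-201 took a larger share of the gene's annotated TPM in both injuries. In MISham its share was 0.00%, 0.00%, 0.00% and 8.32%, and in MI 25.5%, 14.0%, 34.6% and 21.8%. It was 4.8%, 0.5%, 0.1% and 7.9% in IRSham and 18.3%, 12.9%, 20.8% and 30.2% in IR. Every injured library was above every sham library. The change was 21.9 ± 4.25 percentage points in MI (limma adjusted p = 0.00584) and 17.2 ± 4.25 in IR (adjusted p = 0.0328). This was the 1 member transcript of 18 tested that was called in MI (5.91% of all transcripts tested were called) and 1 of 2 in IR (3.88% of all). Its share averaged 24% in MI and 20.6% in IR, against 2.08% in MISham and 3.33% in IRSham. It therefore reached the mean share of 5% needed for testing only through the injured libraries. The IR call was lost on the logit scale (adjusted p = 0.08), without IR replicates 1 and 3 (18.2 points, adjusted p = 0.0986), and without IR replicate 3 or 4 or IRSham replicate 1, 2 or 3 (14.0 to 17.7 points, adjusted p 0.06 to 0.0948). Without MISham replicates 1 and 3 the MI value was 19.8 points (adjusted p = 0.0536).

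Tead1-206 had the opposite pattern, from 29.2%, 58.3%, 42.4% and 0.0% in MISham to 0.0%, 19.0%, 13.0% and 5.4% in MI, and from 27.8%, 18.7%, 30.1% and 26.7% in IRSham to 0.0%, 0.0%, 0.0% and 6.9% in IR. Its changes of -23.1 ± 8.78 and -24.1 ± 8.78 points were not called (adjusted p = 0.139 and 0.147, limma). The MI value was called without MISham replicate 4 (-33.9, adjusted p = 0.00476). Since both transcripts have the same coding exons, their summed share was also taken: 8.32% to 58.3% in MISham, 25.5% to 47.6% in MI, 19.2% to 34.6% in IRSham and 12.9% to 37.1% in IR, with the groups overlapping. Tead1-202, at 12% to 84.0% over all libraries, and Tead1-207, at 0.0% to 36.9%, were not called. All 4 transcripts were at low levels, with means of 0.958 to 2.11 TPM over all libraries.

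Gene counts and annotated TPM as deposited gave opposite directions for Tead1, as they did for Yap1. Whereas the CPM of Tead1 fell, its summed annotated TPM was 2.98, 6, 3.61 and 2.2 in MISham and 10.1, 8.90, 8.23 and 8.26 in MI. It was 6.49, 4.19, 5.03 and 5.01 in IRSham and 6.76, 10.3, 7.18 and 11.3 in IR. TPM as deposited has a median shift of its own, with a median change of all transcripts of 0.60 in MI and 0.48 in IR on the log2(TPM + 1) scale. On TPM rescaled by TMM factors, a scaling chosen after seeing the data, the medians were 0.11 and 0.05. Tead1-201 was called higher on that scale too (1.32 ± 0.24, adjusted p = 0.000332, and 0.99 ± 0.24, adjusted p = 0.00373, limma). Its mean TPM as deposited was 2.12 in MI and 1.87 in IR, against 0.0458 in MISham and 0.184 in IRSham. It therefore reached the mean of 1 TPM needed for testing only through the injured libraries. On rescaled TPM Yap1-202 fell (-0.63 in MI and -0.68 in IR), as the Yap1 gene counts did, and Yap1-201 was not called (-0.10 and 0.07). The long-read transcripts of the table are not paired with genes in the files. Why the scales differ for Tead1 was not tested.

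The Yap1 transcripts were more abundant, with means of 12 and 16.6 TPM for the main ones. Yap1-201 and Yap1-202 held on average 38.4% and 54.1% of annotated TPM. Yap1-201 carries a 48-base coding exon, its exon 6, at chr9:7950492-7950539 on the minus strand of GRCm38, which Yap1-202 lacks. In human YAP1 an exon at this place is known to distinguish isoforms within the leucine zipper region of the activation domain. It is printed because it is the coding difference between the main transcripts.
Yap1 exon 6: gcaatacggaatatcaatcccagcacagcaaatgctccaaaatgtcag
The share of Yap1-201 was 41.0%, 34.9%, 33.8% and 27.5% in MISham and 46.0%, 39.2%, 45.3% and 44.4% in MI, with an overlap. It was 34.8%, 28.2%, 30.4% and 30.8% in IRSham and 43.4%, 49.7%, 42.5% and 42.7% in IR, with none. The change was called in IR (13.5 ± 2.80 points, limma adjusted p = 0.0134), and the MI value was 9.38 ± 2.80 points (adjusted p = 0.0578). It was called in MI without MISham replicate 1 (11.6 points, adjusted p = 0.0199) or without MISham replicates 1 and 3 (12.5 points, adjusted p = 0.0327). MISham replicate 1 had the highest share of its group (41.0%), so leaving it out raises the change by construction.

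Inclusion of this exon was also taken over all 6 Yap1 transcripts that span it, 3 of which carry it, a measure chosen after seeing the data. Inclusion was 43.9%, 37.0%, 39.2% and 32.1% in MISham and 52.8%, 44.0%, 49.1% and 48% in MI, and 38.7%, 32.4%, 36.3% and 36.8% in IRSham and 46.6%, 55.7%, 43.7% and 50% in IR. All injured libraries were higher, in MI by a margin of 0.1 points between the nearest libraries. The differences were 10.4 points in MI and 12.9 points in IR, each with p = 0.0286 in a two-sided exact permutation test over 4 against 4 libraries, the smallest p this design allows, and 0.114 after adjustment over the 8 exon comparisons made. For the Tead1 exons the groups overlapped in every comparison: inclusion of the 12-base exon was 48.5% ± 27.7 in MISham, 64.9% ± 8.52 in MI, 51.1% ± 11.4 in IRSham and 58.0% ± 19.6 in IR (exact permutation p = 0.343 and 0.6, n = 4). The upstream 63-base exon differed by 11.3 and 4.25 points (exact permutation p = 0.629 and 0.686), and the downstream one by -17.4 and -12.8 points (p = 0.0571 and 0.229).

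**Figure D4:**
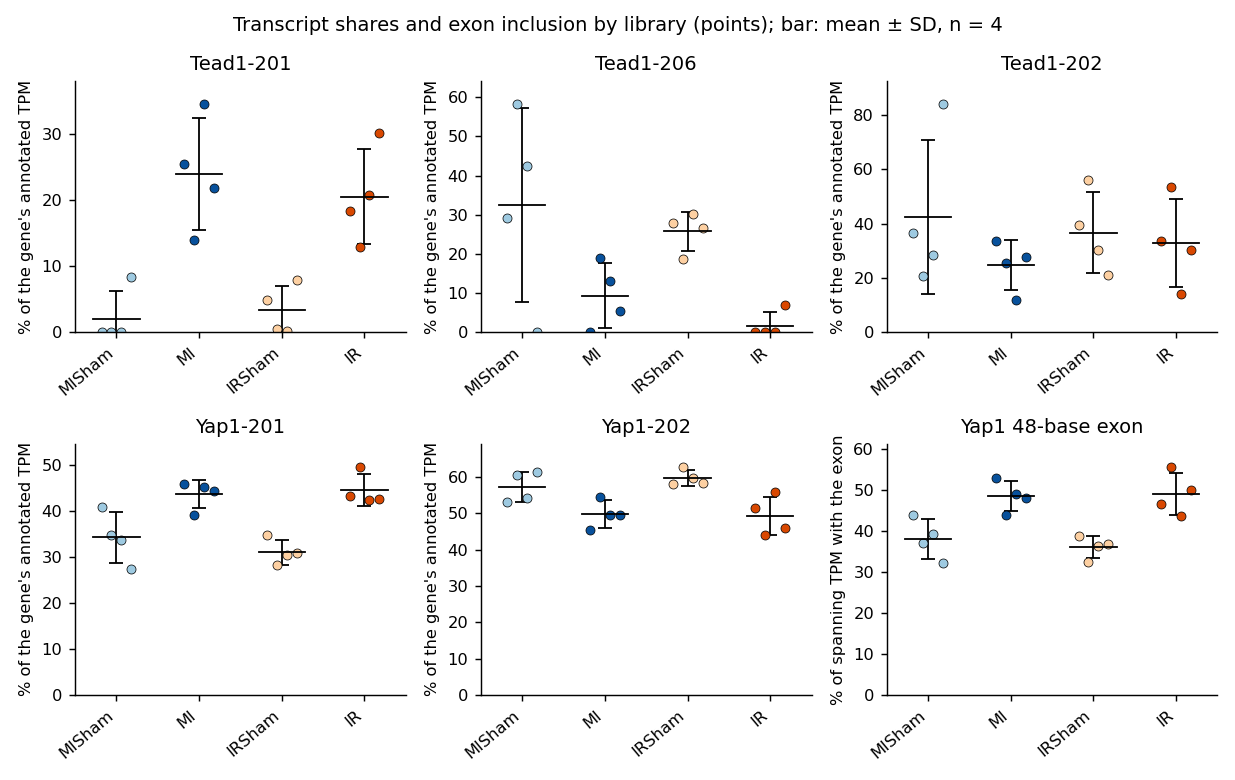
Share of annotated TPM held by Tead1-201, Tead1-206, Tead1-202, Yap1-201 and Yap1-202, and inclusion of the Yap1 48-base exon, in percent, 1 point per library with the mean and SD (n = 4). Tead1-201 is above 12% in every injured library and below 9% in every sham library, while the Yap1 exon is included at 43.7% or more in injured and 43.9% or less in sham libraries.

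On levels, 17 of the 23 member transcripts tested were called higher in MI and 0 lower, where 59% of all transcripts were called (49% higher and 10.1% lower), and 12 were higher and 1 lower in IR, where 51.7% were called (42.5% higher and 9.23% lower). On rescaled TPM these became 13 higher and 2 lower in MI (45.3% of all) and 7 higher and 2 lower in IR (38.7% of all). The transcript called lower in IR was Tead3-202, a retained-intron transcript (-0.42 ± 0.17, adjusted p = 0.0494, limma), whose MI value was 0.00719 as deposited and -0.435 rescaled. Ccn2-201, at 97.2% of its gene's annotated TPM, rose on both scales (4.10 ± 0.19 as deposited and 3.40 ± 0.18 rescaled in MI). Yap1-202 was not called as deposited (0.05 ± 0.09 in MI and -0.10 ± 0.09 in IR) and fell when rescaled, by 0.63 ± 0.11 (adjusted p = 0.000287, limma) and 0.68 ± 0.11 (adjusted p = 0.000206). Yap1-201 was higher as deposited (0.56 ± 0.12 and 0.63 ± 0.12) but -0.10 and 0.07 when rescaled, neither called. Limma called 0 member transcripts for the difference of the responses, beside 0.084% of all transcripts, and 0 between the shams, beside 0.0198%. At an unadjusted p under 0.05 there were 8 and 4 of the 23, beside 11.2% and 8.33% of all transcripts. On rescaled TPM the calls were also 0 and 0, beside 0.0741% and 0.0667% of all, with 6 and 3 at an unadjusted p under 0.05, beside 10.9% and 9.2%. Of the 18 member shares tested 0 were called in either comparison, beside 0% and 0.0742% of all shares, with 0 and 1 at an unadjusted p under 0.05, beside 8% and 8.36%.

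The other TEAD genes differed in how closely transcripts followed counts. Tead2-201, the main coding transcript of Tead2, rose from 1.62 ± 0.207 TPM in MISham to 11.4 ± 1.13 in MI and from 2.21 ± 0.214 in IRSham to 10.2 ± 0.724 in IR. It was called on both scales (2.23 ± 0.10 and 1.80 ± 0.10 as deposited, 1.68 ± 0.09 and 1.31 ± 0.09 rescaled). Tead3-206, the main coding transcript of Tead3, was called higher as deposited (0.63 ± 0.11 and 0.57 ± 0.11) but had 0.01 and 0.03 when rescaled, while the gene counts of Tead3 fell. Tead4-201, at 55.8% of its gene, rose in MI on both scales (0.82 ± 0.14 as deposited and 0.39 ± 0.13 rescaled) and was not called in IR (0.26 and -0.10), except as deposited without IR replicate 1 (0.35, adjusted p = 0.0427, limma).

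For the other members a few transcripts carried nearly all of the annotated TPM. Wwtr1-201 held 99.7% of its gene and was called higher as deposited (0.86 ± 0.08 and 0.69 ± 0.08) but not when rescaled (0.17 and 0.11). Ccn1-201, the only annotated transcript of its gene in the table, rose on both scales (1.96 ± 0.22 and 1.87 ± 0.22 as deposited, 1.26 ± 0.23 and 1.27 ± 0.23 rescaled). Ankrd1-205, at 93.3% of its gene, rose in MI (1.44 ± 0.19 as deposited and 0.72 ± 0.19 rescaled) and was not called in IR (0.18 and -0.43), the same calls as its gene counts gave. Vgll4 was divided between a coding transcript, Vgll4-201 (43.7%), and a processed transcript, Vgll4-205 (49.7%). Both rose in MI on both scales (1.00 ± 0.13 and 0.96 ± 0.12 as deposited, 0.39 ± 0.11 and 0.33 ± 0.11 rescaled). In IR Vgll4-205 rose on both scales (1.11 ± 0.12 and 0.57 ± 0.11), whereas the coding transcript was called as deposited (0.74 ± 0.13) and not when rescaled (0.20 ± 0.11).

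The rest of the pathway was read from lists of genes in 6 groups. Of 63 genes listed, 60 were tested; 40 were called higher and 10 lower in MI, and 32 higher and 13 lower in IR (46 and 5, and 38 and 8, with library size alone). Over all genes tested, 34.8% were called higher and 30.2% lower in MI, and 29.5% and 28.2% in IR. Vgll1 and Vgll2 had at most 2 and 21 counts in any library and were not tested, and Tp73 was not matched in the table.

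Among 26 genes for Hippo kinases, their adaptors and upstream regulators, 16 rose and 4 fell in MI and 13 rose and 6 fell in IR (median log2 fold change 0.35 and 0.17, beside 0.08 and 0.03 over all genes). These counts, 20 and 19 of 26, stand beside 64.9% and 57.7% of all genes called, and nothing particular to the list is read from them. The core kinase genes Stk4 (0.85 ± 0.08) and Stk3 (1.15 ± 0.12), which encode MST1 and MST2, rose in MI together with the adaptor gene Mob1a (1.22 ± 0.11), and all of them also rose in IR (0.70 ± 0.08, 0.87 ± 0.12 and 1.04 ± 0.11). Mob1a went from 74.3 ± 13.0 CPM in MISham to 173 ± 17.2 in MI. Taok3, an upstream kinase gene, rose by 1.25 ± 0.14 in MI and 1.17 ± 0.14 in IR. Lats1, one of the kinases that phosphorylate YAP, rose by 0.45 ± 0.07 and 0.35 ± 0.07. Lats2, the gene of its partner kinase, had 0.16 ± 0.06 in MI (adjusted p = 0.0207, edgeR) and 0.12 ± 0.06 in IR (adjusted p = 0.0824). Its MI call was lost by DESeq2 (adjusted p = 0.0701), with no filter, with only the groups compared, with the replicate block, and without MISham replicate 2, MISham replicate 3 or MISham replicates 1 and 3 (adjusted p 0.0504 to 0.126 over these), and its IR value was called with library size alone (0.413) or without IR replicate 1 (0.144). Wwc1, which encodes KIBRA, rose by 1.89 ± 0.50 and 1.40 ± 0.55 at CPM means of 0.186 to 1.12, and its IR value was not called without IR replicate 2 (0.67), IRSham replicate 1 (1.22) or IRSham replicate 4 (1.16). Nf2, the gene of the upstream tumour suppressor Merlin, fell from 190.0 ± 4.18 to 118 ± 10.4 CPM in MI (-0.69 ± 0.07) and by 0.66 ± 0.07 in IR. Taok1 (-0.32 ± 0.06 in MI and -0.22 ± 0.06 in IR), Limd1 (-0.30 ± 0.06 and -0.27 ± 0.06), Ptpn14 (-0.21 ± 0.08 and -0.26 ± 0.08) and Amot (-0.32 ± 0.09 in IR) were also called lower. With library size alone Limd1 (0.00689 and 0.0243), Ptpn14 (0.0977 and 0.0294) and Taok1 in IR (0.0661) turned positive, and Taok1 in MI (-0.01) and Amot in IR (-0.02) stayed negative, none of them called. The MI call of Ptpn14 was also lost without MI replicate 1, 2 or 4 or MISham replicate 2, and its IR call without IRSham replicate 1.

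All 7 tested partners of TEAD, YAP or TAZ rose in MI and 6 of the 7 in IR, beside 34.8% and 29.5% of all genes called higher. Smad3 had 0.21 in MI, a call lost by DESeq2 (adjusted p = 0.0698), with only the groups compared, or without MI replicate 1, MI replicate 2 or MISham replicate 2 (0.157 to 0.196), and 0.08 ± 0.07 in IR. The osteogenic and wound-response factor genes Runx1 (2.37 ± 0.22 and 2.04 ± 0.21) and Runx2 (3.10 ± 0.19 and 1.95 ± 0.18), the AP-1 gene Fosl1 (3.23 ± 0.54 and 1.90 ± 0.54) and the TEAD cofactor gene Vgll3 (1.89 ± 0.12 and 1.65 ± 0.12) had the highest values. Runx1 went from 10.9 ± 3.80 CPM in MISham to 56.4 ± 5.32 in MI, and Vgll3 from 13.5 ± 1.46 to 49.9 ± 3.58. Fosl1 was low, with CPM means of 0.205 in MISham, 2.00 in MI, 0.234 in IRSham and 0.873 in IR. It thus passed the filter on low counts mainly through the injured libraries. With only the groups compared no IR value was obtained for it. The partners counted as rising in MI and in IR include it.

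Of 19 genes of a YAP and TAZ target signature, defined elsewhere in human cancers, 13 rose and 4 fell in MI and 10 rose and 5 fell in IR, with medians of 0.72 and 0.65. The 17 and 15 called stand beside 64.9% and 57.7% of all genes. Tgfb2, a TGF-beta ligand gene, rose by 2.00 ± 0.17 and 1.72 ± 0.17, and the membrane repair gene Myof by 2.38 ± 0.26 and 1.90 ± 0.26. Igfbp3, an IGF-binding protein gene, went from 39.2 ± 2.92 CPM in MISham to 282 ± 50.4 in MI (2.84 ± 0.35). Its IR value was 0.98 and was called, with 33.8 ± 4.43 CPM in IRSham and 66.6 ± 45.3 in IR, but it was not called without IR replicate 3 (0.40) or IRSham replicate 3 (0.89), nor without IR replicates 1 and 3 (0.48). Fjx1 (1.68 ± 0.35 and 1.25 ± 0.34) rose in both, and Ccdc80 was among the 4 highest in IR (1.11 ± 0.16). Among the members of the signature that fell in both were the tissue factor gene F3 (-1.74 ± 0.16 and -1.48 ± 0.16), the stress gene Gadd45a (-1.01 ± 0.19 and -1.42 ± 0.19) and Ptpn14; Crim1 fell in IR (-0.57 ± 0.10), and its MI value was -0.04, which became 0.28 and was called with library size alone.

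Muscle genes with known MCAT elements followed neither direction as a group. The heavy chain and troponin genes Myh6 (-2.56 ± 0.33 and -2.34 ± 0.33) and Tnnt2 (-1.66 ± 0.18 and -1.52 ± 0.18) fell in both injuries, and Myh7 fell in IR (-1.46 ± 0.41) and was not called in MI. The actin genes Acta2 (2.38 ± 0.22) and Acta1 (1.16 ± 0.31) rose in MI, and both had -0.24 in IR, neither called (0.05 each with library size alone). Acta2 was the 1 list gene called for the difference of the responses (2.63 ± 0.30 higher in MI, adjusted p = 0.00605, edgeR). Its shams differed too, at 73.6 ± 18.3 CPM in MISham and 360 ± 126 in IRSham. Sham means also stood apart for Acta1 (315 ± 115 and 636 ± 191 CPM) and Myh7 (462 ± 36.4 and 943 ± 364), less so for Myh6 (36400 and 39500) and Tnnt2 (8130 and 9030). Injured means were 702 in MI and 538 in IR for Acta1, and 373 and 343 for Myh7. The calls of Acta1 in MI and Myh7 in IR are thus each relative to their own sham. Among the other CCN genes, Ccn4 (3.78 ± 0.31 and 3.15 ± 0.30) and Ccn5 (2.26 ± 0.34 and 1.51 ± 0.33) rose in both, while Ccn3 had 0.06 and -0.01, neither called and both of unstable sign. Ankrd2, a relative of Ankrd1, rose in MI (3.15 ± 0.38) and IR (0.83 ± 0.33) from CPM means of 0.441 in MISham and 1.83 in IRSham, the IR call being lost without IR replicate 2, 3 or 4 or IRSham replicate 1, 2 or 4 (0.55 to 0.86). Ankrd23 fell in MI (-0.45 ± 0.11), a call lost with library size alone (-0.14). In the same comparisons cardiomyocyte marker sums were lower and fibroblast marker sums higher, as given above, while these lists had no common direction. A link between them was not tested.

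**Figure D5:**
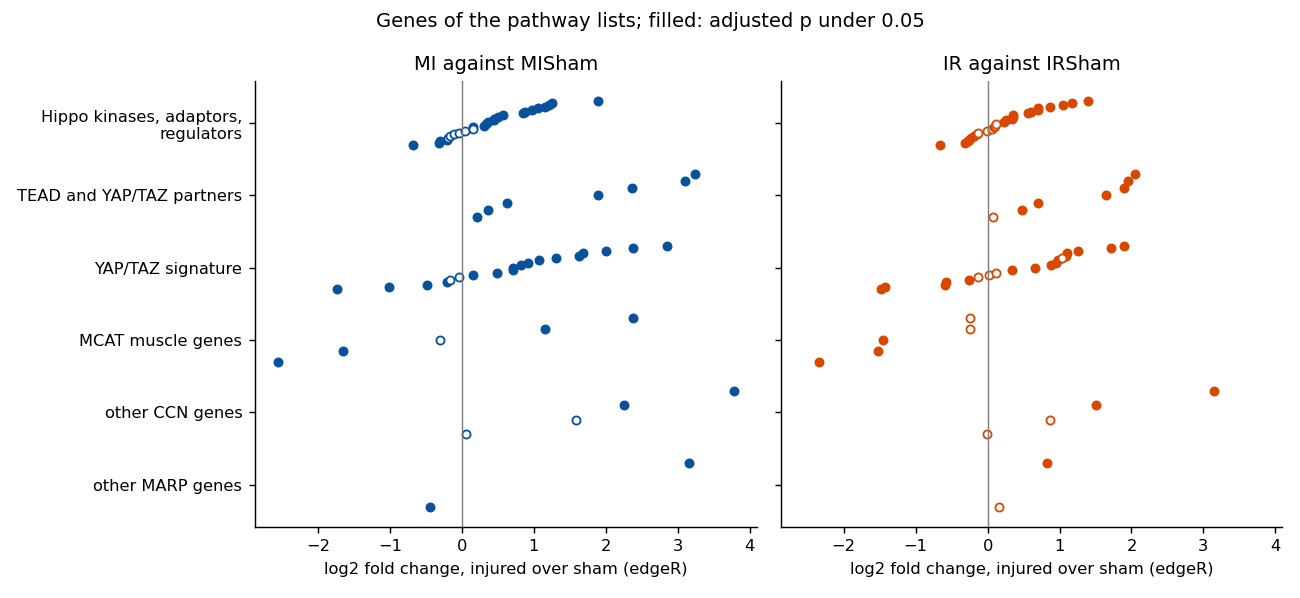
Log2 fold change, injured over sham (edgeR), of each tested gene in the 6 pathway lists, for MI (left) and IR (right); filled points were called at an adjusted p under 0.05. The TEAD and YAP/TAZ partners lie above 0 in both panels, and the muscle genes spread from -2.56 to 2.38 in MI.

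For 3 members, the genes with the most similar profile over the 16 libraries were taken, by the root mean square difference of centred log2 CPM. Tead1 was matched most closely by Usp24 (0.06), Npepps (0.07), Sos2 (0.07), Ice1 (0.07) and Mast2 (0.08), all lower in both injuries. The closest profiles to Ccn2 were Cd109 (0.30), Enpp1 (0.31), Cdca5 (0.35), Star (0.35) and Brca1 (0.37), which had log2 fold changes of 3.09 to 3.42 in MI. For Ankrd1 they were AU021092 (0.23), Cyb561 (0.25), Pspc1 (0.28), Emid1 (0.28) and Gpx3 (0.28). Since libraries share depth and cell makeup within a group, such likeness is a description of these libraries alone.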

How the data were processed

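Counts and TPM came from 16 short-read libraries, 4 in each of the groups MI, MISham, IR and IRSham. The deposited gene table holds raw counts per gene for 63318 genes, with gene lengths, and the deposited transcript table holds TPM, scaled by the authors for transcript length and depth. Per the submitters' processing notes, the tools were HISAT2 2.2.1, SAMtools 1.7, featureCounts 2.0.1 and kallisto 0.50.1 with the GRCm39 genome; their roles, the strand setting and the annotation release are not given in the sources used here. The members and lists were chosen with earlier results of these data known.

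From the counts, edgeR 4.0.16 (R 4.3.3) tested 19741 genes that passed filterByExpr (minimum count 10, minimum total 15), with TMM scaling and a robust quasi-likelihood fit of the 4 group means; SE is the fold change divided by the square root of F. Transcripts with a mean of at least 1 TPM (40489) were tested with limma 3.58.1 on log2(TPM + 1), which understates changes of low transcripts. Shares of summed annotated TPM were tested with limma for 25606 transcripts whose share averaged 5% or more in genes whose sum averaged 5 TPM or more, and a call needed an adjusted p under 0.05 and a change of 10 percentage points. All p-values were adjusted by Benjamini-Hochberg over all features tested. Exon inclusion was compared by exact permutation tests (scipy 1.17.1). Counts limit precision through depth, 24273984 to 63070805 per library; for TPM the depth is not recorded. The procedures were run on simulated data in which most features were unchanged, unlike these data. That run does not bear on the choice of scale or on the calls given here.

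Named list genes were, for each list, up to 4 called higher and 4 called lower with the largest change in each injury; Stk4, Lats1, Lats2, Smad3, Ccn3 and Dcn were named after their values were seen. A further gene that this rule names is not reported here. Named transcripts had a mean share of at least 10%, and the 5 most similar genes were taken for Tead1, Ccn2 and Ankrd1. Alternatives were DESeq2 1.42.0, library size alone, no filter, only the groups compared, a replicate block, another pseudocount (0.1), other share limits, and leaving out each library. Leaving out MISham or IR replicates 1 and 3, rescaled TPM and exon inclusion were chosen after seeing the data. Same-numbered libraries of compared groups correlated between -0.123 and 0.05 in their deviations from the group means, so the numbers were not taken to pair them. Another 2 columns of the transcript table, an effective length and an estimated count with no sample named, were not used.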

Additional observations from a re-analysis of the deposited data

Results flagged for a closer look

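In 8 of 64 groups of 4 libraries, 1 library lay far from the other 3, past Dixon's critical value for its gap. Chance gives about 1 in 20 for independent, normally spread values. The 24 groups of transcript shares are not of that kind, since shares of a gene depend on each other and some lie at 0. The number flagged is therefore not read as an excess. Ccn1 had 311.9 CPM in MI replicate 4, against 214 to 226 in the others. Tead1 had 343.6 CPM in MISham replicate 2, against 283 to 289, and Tead2 had its low value there, 6.027 CPM against 7.46 to 7.76. The Tead1-201 share was 8.32% in MISham replicate 4, and the Tead1-206 share was 6.89% in IR replicate 4, where the other IR libraries were at 0%. The Tead1-207 share was 14.1% in MI replicate 3 and 26.3% in MISham replicate 1. The Yap1-201 share was 49.7% in IR replicate 2, against 42.5% to 43.4%.

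The count table also holds an unannotated gene whose identifier marks it as antisense to Ankrd1. It lay outside the comparisons above and was higher in both injuries. On the TMM scale of the test it had 1.53 to 2.21 CPM in MISham, 2.61 to 6.80 in MI, 1.80 to 2.41 in IRSham and 3.35 to 5.56 in IR, with log2 fold changes of 1.31 ± 0.28 (adjusted p = 0.000565, edgeR) and 1.09 ± 0.28 (adjusted p = 0.00309). Without a stated strand setting, its reads and those of Ankrd1 cannot be told apart.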

How the results depend on the processing

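Of 640 recomputed fold changes of members, 609 kept direction and call, 10 lost the call, 13 gained it and 8 turned; of 1034 for list genes and Dcn, 966 kept both. With library size alone the sign turned for Tead3 (0.00366), Limd1 (0.00689), Ptpn14 (0.0977), Amot (0.109) and Crim1 (0.276) in MI, and for Tead4 (0.171), Limd1 (0.0243), Ptpn14 (0.0294), Taok1 (0.0661), Acta1 (0.0536), Acta2 (0.0469), Ccn3 (0.276) and Dcn (0.0638) in IR. Ccn3 in IR also turned with no filter (0.0117) and without IR replicate 2, 3 or 4 or IRSham replicate 3 (-0.211 to 0.204 over all libraries), and in MI without MI replicate 2 or MISham replicate 4 (-0.0956 to 0.178). Leaving out libraries turned Acta2 in IR (0.00276 without IRSham replicate 4; -0.413 to 0.00276 over all libraries) and differences of the responses near 0: Ccn1 (0.000576, 0.00544 and 0.253 without IR replicate 4, IRSham replicate 2 and MISham replicate 4; from -0.267), Vgll4 (0.024 and 0.0054 without MISham replicate 1 and 2; from -0.0832) and Yap1 (0.0225 without IR replicates 1 and 3).

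Rescaled TPM turned Tead3-202 (-0.435), Yap1-201 (-0.0972) and Yap1-202 (-0.63) in MI, and Tead4-201 (-0.1) and Ankrd1-205 (-0.43) in IR, among the transcripts named here that were called on either scale in either injury. Tead3-202 also turned without MI replicate 2 (-0.0388) or 3 (-0.036) or MISham replicate 2 (-0.108) or 4 (-0.0353), with up to 0.106 over all libraries, and Yap1-202 without MISham replicates 1 and 3 (-0.0366). The Tead1-202 share in IR turned without IR replicate 3 (2.55), IRSham replicate 2 (2.75) or IR replicates 1 and 3 (5.26), with down to -10.5 over single libraries. Inclusion of the upstream Tead1 exon turned without MISham replicate 4 in MI (-1.41 to 16.5) and without IR replicate 3 in IR (-1.71 to 11.6).

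Leaving out 1 library gave 9 to 10 members called in MI, 7 to 8 in IR, 0 to 1 for the difference and 0 to 1 between the shams. Members called between the shams were 0 with no filter, with only the shams fitted or with the replicate block, and 2 by DESeq2. For the difference, 2 were called by DESeq2 and 2 without MISham replicates 1 and 3. List genes called for the difference were 4 with no filter, 6 by DESeq2, 6 without MISham replicates 1 and 3, 3 without IR replicates 1 and 3, and 1 to 5 leaving out 1 library. Member shares called in IR were 1 on the logit scale, 0 with the replicate block, 4 without IR replicates 1 and 3, and 1 to 3 leaving out 1 library; in MI they were 1 to 2. The replicate numbers share only a number, so calls lost under the block are not read as weaker effects. The causes were not tested. Depth was higher in MI than in the other groups, and low genes (Tead4, Wwc1, Fosl1, Ankrd2) and Tead1 transcripts rest on few reads.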
